A study of Mus musculus with 9 samples.

Results

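The S100 calcium-binding protein family was described in mouse hepatocytes that had been reprogrammed in culture and exposed to copper. The 10 genes described, S100a1, S100a4, S100a6, S100a8, S100a9, S100a10, S100a11, S100a13, S100a14 and S100a16, were chosen by symbol, with earlier results of these data known, from the 21878 symbols of the count table. The table holds 17 S100 genes in all. Their levels are therefore given as a description and carry no test. Primary hepatocytes from C57BL/6 mice with intact Atp7b (genotype WT) had been turned into liver progenitors with growth factors and small molecules, transduced with a GFP lentivirus, matured again for 3 weeks and treated with copper chloride for 24 hours (group WT-GFP). The labels' protocols give the copper dose as 100 µM, whereas the treatment field gives 100 mM. For the WT cells the vector is ATP7B in the growth protocol and GFP in the titles, and the latter is used here. The series has 9 samples in 3 groups of 3, and the other groups are Atp7b knockout cells with an ATP7B or a GFP lentivirus, also exposed to copper. Only WT-GFP replicates 1 and 2 could be tied to a column of the count table, so no comparison between genotypes or vectors was made. Cells without copper were not analysed here, and no change on copper exposure is given.

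S100 proteins are small, dimeric calcium sensors with a pair of EF-hand motifs that expose a binding surface for target proteins when calcium rises. Inside cells they bind annexins, cytoskeletal proteins and enzymes, and some are released and act on surface receptors such as the receptor for advanced glycation end products. In liver, S100a8 and S100a9 are best known from neutrophils and monocytes and S100a4 from fibroblasts and macrophages, while S100a6, S100a10 and S100a11 are expressed in many epithelia. Several members also bind other metals, and S100A13 is known for its part in a copper-dependent complex that releases the growth factor FGF1.

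The family lies mostly in one stretch of mouse chromosome 3, and 14 of the 17 S100 genes of the table, with all 10 genes chosen, stand there (GENCODE release M21, GRCm38). The stretch from S100a1 to S100a10 runs over 3.05 Mb, chr3:90511034-93564643. S100a1 (ENSMUSG00000044080.9, minus strand) and S100a13 (ENSMUSG00000042312.9, plus strand), both protein-coding, are read away from each other, with 42 bases between their annotated starts. The bases between this pair are shown because both genes were expressed, and those before S100a6, S100a11 and S100a4 because they precede the 2 highest members and one low member. Each is written 5′ to 3′ in lower case on the plus strand, from RefSeq's promoter table on GRCm38.p6, with the motif matches named below in capitals. The stretch between S100a1 and S100a13 is chr3:90514393-90514434, and those before the RefSeq starts are chr3:90612644-90612893 for S100a6, chr3:93520246-93520495 for S100a11 and chr3:90603520-90603769 for S100a4, all of 250 bases.
S100a1 to S100a13: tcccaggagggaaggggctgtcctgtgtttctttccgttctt
S100a6: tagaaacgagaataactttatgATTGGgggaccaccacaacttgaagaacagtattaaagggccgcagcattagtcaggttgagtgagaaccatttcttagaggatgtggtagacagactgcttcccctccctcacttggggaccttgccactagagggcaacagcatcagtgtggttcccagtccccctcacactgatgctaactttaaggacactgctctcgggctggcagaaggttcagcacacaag
S100a11: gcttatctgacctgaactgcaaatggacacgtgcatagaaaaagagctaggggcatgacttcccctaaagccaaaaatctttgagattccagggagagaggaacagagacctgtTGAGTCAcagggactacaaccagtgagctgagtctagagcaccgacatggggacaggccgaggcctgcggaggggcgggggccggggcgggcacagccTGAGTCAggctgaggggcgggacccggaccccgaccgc
S100a4: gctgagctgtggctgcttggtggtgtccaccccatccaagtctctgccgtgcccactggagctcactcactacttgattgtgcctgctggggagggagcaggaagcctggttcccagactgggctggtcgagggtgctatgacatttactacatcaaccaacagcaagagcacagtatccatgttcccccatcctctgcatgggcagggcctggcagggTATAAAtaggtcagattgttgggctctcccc

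Motifs were searched on both strands in the 250 bases before each start. TGACTCA, the letters bound by AP-1, stood before S100a11 in 2 places, 136 and 38 bases before the start and in the reverse orientation (TGAGTCA), and 4.46% of the 32851 windows of all genes held it at least once. TATAAA, the letters of the TATA box, stood 31 bases before S100a4 and 30 bases before S100a8, against 12.4% of all windows. S100a6 held CCAAT once, in reverse 228 bases before its start, against 33.8% of all windows. The forms TGCGCNC (12.5% of all windows) and TGCACNC (10.4%), together the core letters of the metal response element, were not in the windows of S100a6, S100a11, S100a4, S100a8, S100a9, S100a1 or S100a13. TGCACNC was in 1 of the windows of S100a16, in reverse. Among the other S100 genes TGCGCNC stood before S100g, in reverse 227 bases before its start. TATAAA stood 52 bases before a start of S100a3, and CCAAT stood before S100b, S100z, S100a3 and S100a5. In all, 8 of the 10 members matched a window by symbol, and S100a10 and S100a14 did not. No matches overlapped one another. The RefSeq starts of S100a6 and S100a11 lie inside the first GENCODE exon, so the last bases of these windows are annotated there as exon. The window of S100a1 reaches into both S100a1 and S100a13 as GENCODE places them. It shares bases with the window of S100a13, so their lack of matches is in part the same observation. The TATAAA before the RefSeq start of S100a8 likewise lies past the GENCODE start of that gene. A match is a description of letters, and no match says only that the letters are not in this window.

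The 2 libraries held 18532457 counts (replicate 1) and 17821682 counts (replicate 2). Where a gene had no counts, up to 3 counts remain possible, equal to 0.162 CPM (counts scaled to the library total) in replicate 1 and 0.168 CPM in replicate 2. Levels are the authors' FPKM, counts scaled to library total and gene length, as mean ± SD over the 2 libraries (n = 2). They are used to compare genes, which depends on the gene lengths the authors took, and CPM are used within a gene. Of 8 hepatocyte markers 6 reached 10 FPKM, albumin among them at 929.6 ± 33.4 FPKM, while Cps1, of the urea cycle, was at 1.21 FPKM and Cyp2e1 at 2.26 FPKM, so the labelled cell type was met in part. Of 6 biliary and progenitor markers 5 reached 10 FPKM, as did 2 of 5 mesothelial markers and 0 of 5 endothelial markers, against 27.1% of all symbols. Among the biliary and progenitor markers Cd24a was at 648.6 ± 27.0 FPKM. Krt7 was at 10.4 FPKM, or at 2.34 FPKM with its GENCODE length. The mesothelial marker Msln, at 1159 ± 20.7 FPKM, was above albumin in both libraries.

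Of the 10 members, 6 reached a mean of 10 FPKM, 1 lay between 1 and 10 FPKM, and 3 were below 1 FPKM. Over all symbols 27.1% reached 10 FPKM and 51.2% were below 1 FPKM, and since the members were chosen with their values known, nothing is read from this contrast. The median of the members was 29.5 FPKM (31.0 and 28.0 FPKM in replicates 1 and 2), beside 0.782 FPKM over all symbols. Together the members took 0.404% of the counts of replicate 1 (95% Wilson interval 0.401 to 0.407%) and 0.396% of those of replicate 2 (0.393 to 0.399%). S100a6, S100a11 and S100a10 made up 0.391% and 0.384% of the counts, so these 3 genes held nearly all of the family's reads.

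**Figure D1:**
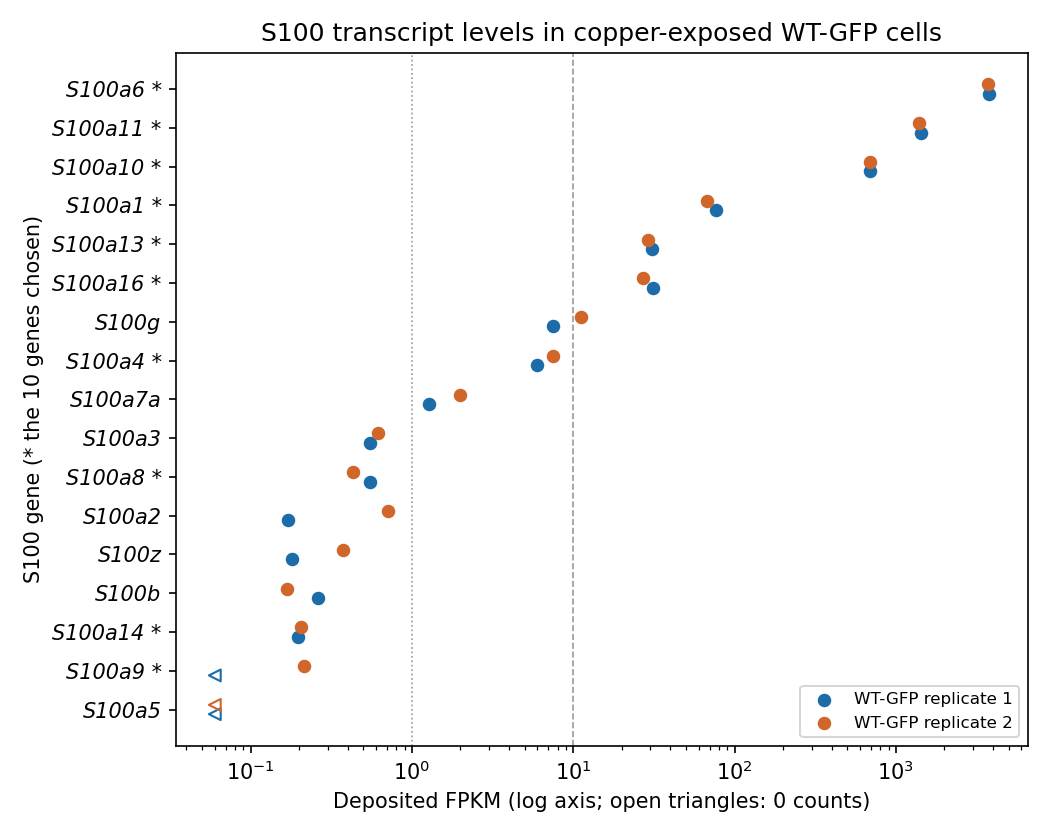
Deposited FPKM (log axis) of the 17 S100 genes of the table in WT-GFP replicates 1 and 2, one point per library, with dotted and dashed lines at 1 and 10 FPKM, open triangles for 0 counts and asterisks for the 10 genes chosen. S100a6, S100a11 and S100a10 are the highest genes in both libraries, from 3765 FPKM for S100a6 down to 687.7 FPKM for S100a10, and the next gene, S100a1, is at 76.4 and 67.3 FPKM.

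The annexin-binding members S100a6, S100a11 and S100a10 were the most abundant. S100a6 (calcyclin, ENSMUSG00000001025.8), which binds annexins and the calcyclin-binding protein, had 50164 counts in replicate 1 and 47384 in replicate 2, or 3765 and 3698 FPKM. With the authors' lengths it ranked 4 of all symbols by mean FPKM and gave 62.5 ± 0.0392% of the members' summed FPKM. This share and the ranks given here were not computed with GENCODE lengths. S100a11 (calgizzarin, ENSMUSG00000027907.4), a partner of annexin A1, had 13349 and 12560 counts, or 1429 and 1398 FPKM, and ranked 11. S100a10 (p11, ENSMUSG00000041959.14), which differs from the rest of the family in holding its open form without calcium and pairs with annexin A2, had 8922 and 8567 counts, or 688.7 and 687.7 FPKM, and ranked 54. The values of these genes did not overlap in the 2 libraries: S100a6 was 2.64 ± 0.00730 times S100a11 and S100a11 2.05 ± 0.0295 times S100a10 per length.

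Gene length bears on these ratios. The deposited FPKM imply a length of 719 bases for S100a6, whereas the union of its GENCODE exons, which adds up the exons of all its annotated transcripts (one with a retained intron and one with a distant last exon among them), is 1367 bases. With GENCODE lengths S100a6 came to 1963 FPKM, S100a11 to 1394 FPKM and S100a10 to 397 FPKM, S100a6 was then 1.41 times S100a11, and S100a11 was 3.51 times S100a10. The order of the 10 members by mean FPKM was the same with both sets of lengths. Reads of S100a11 may in part be shared with its processed pseudogene S100a11-ps on chromosome 12, which shares a run of up to 44 bases with it and is not a row of the table. Between any member and another S100 gene of the table the longest shared run of transcript was 19 bases, so other members are not near-identical copies.

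S100a1, S100a13 and S100a16 were expressed at a middle level. S100a1, best known as a regulator of calcium cycling in heart and muscle, had 871 and 738 counts, or 76.4 and 67.3 FPKM. S100a13 (29.9 ± 1.24 FPKM), read from the other side of the 42 bases shown above, had 549 and 498 counts. S100a1 was 2.40 ± 0.116 times S100a13 per length, or 1.58 times with GENCODE lengths. S100a16, a broadly expressed member, had 941 and 778 counts, or 31.3 and 26.9 FPKM. Its values enclosed those of S100a13 (30.8 and 29.0 FPKM), so the order of these 2 genes is not resolved with the authors' lengths. With GENCODE lengths the means were 40.3 FPKM for S100a13 and 29.2 FPKM for S100a16.

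S100a4, S100a14, S100a8 and S100a9 were low. S100a4, also called fibroblast-specific protein 1, had 69 and 84 counts, or 5.94 and 7.52 FPKM. GENCODE gives 302 exon bases of S100a4 also to the overlapping gene model Gm42674 on the same strand, which is not a row of the table. None of 8 fibroblast and stellate markers reached 1 FPKM, and for 4, among them Col1a2 and Acta2, no read was counted. Of all symbols 51.2% were below 1 FPKM. Their summed level was 0.335 FPKM in replicate 1 and 0.150 FPKM in replicate 2.

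S100a8 and S100a9, whose products form the neutrophil protein calprotectin, were at the limit of detection. S100a8 had 4 and 3 counts, which is 0.216 CPM (95% exact interval 0.0588 to 0.553) and 0.168 CPM (0.0347 to 0.492). S100a9 had 0 and 2 counts. In replicate 1 that is at most 0.162 CPM by the limit of 3 counts, or 0.199 CPM by the upper end of the exact interval. In replicate 2 it is 0.112 CPM (0.0136 to 0.405). Among 16 neutrophil and myeloid markers, 15 stood below 1 FPKM and 10 were without counts, the latter including the neutrophil genes Ly6g, Mpo, Elane and Cxcr2. Over all 21878 symbols 51.2% were below 1 FPKM and 6333 had no counts. The list's summed level of 15.8 FPKM in replicate 1 and 20.3 FPKM in replicate 2 was mostly that of the lysosomal gene Cd68 (17.1 ± 3.34 FPKM). S100a14, an epithelial member, had 4 counts in each library, 0.216 CPM (0.0588 to 0.553) and 0.224 CPM (0.0612 to 0.575). In bulk samples fewer cells of a type and less RNA per cell cannot be told apart.

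The other 7 S100 genes of the table all had means below 10 FPKM. S100g (calbindin-D9k, an intestinal calcium-binding protein, X chromosome) was at 7.53 and 11.1 FPKM from 67 and 95 counts, with its lower value next to the higher one of S100a4 (7.52 FPKM). S100a7a, related to the skin protein psoriasin, was at 1.28 and 1.97 FPKM, or at a mean of 3.79 FPKM with its GENCODE length. Of the rest, S100a3, S100a2, S100z and S100b were below 1 FPKM, and S100a5 had no counts. In the order of all 17 genes 8 of the 16 neighbouring pairs overlapped in their 2 libraries. These were S100a13 with S100a16 and the 7 pairs from S100a3 downward, where each gene had from 0 to 44 counts.

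Along chromosome 3 high and low S100 genes stood side by side. S100a5, with no counts, begins 2477 bases after the end of S100a4 and ends 1101 bases before the start of S100a6, the highest member. S100a14, with 4 counts in each library, lies between S100a13 and S100a16, 2274 bases after the former and 8416 before the latter. S100a11 and S100a10 are 28792 bases apart and are separated from the other S100 genes by about 2824766 bases that hold 54 further genes of the table, those of the epidermal differentiation complex. Of these 54 genes 47 were below 1 FPKM and 28 had no counts, where 51.2% of all 21878 symbols were below 1 FPKM and 6333 had no counts. The 2 at 10 FPKM or more were Sprr1a, a protein of the cornified envelope, at 118 and 174 FPKM, and Crct1 at 14.3 and 30.8 FPKM. Of the 7 genes that join an S100 domain to a long repeat, such as filaggrin (Flg) and trichohyalin (Tchh), 6 had no counts and Tchh was at 0.816 ± 0.0776 FPKM. Of 6 keratinocyte markers 5 were below 1 FPKM.

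**Figure D2:**
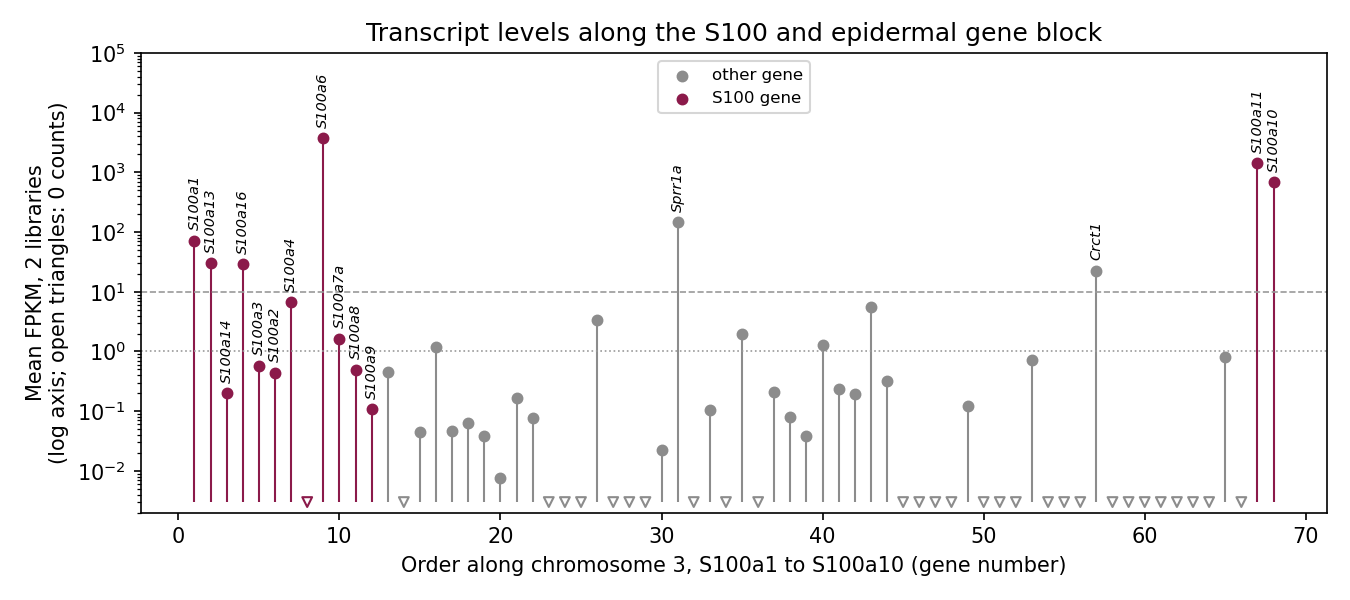
Mean FPKM of 2 libraries (log axis) of the 68 genes of the table from S100a1 to S100a10, in their order on chromosome 3, with S100 genes in dark red, other genes in grey, open triangles for 0 counts and lines at 1 and 10 FPKM. Between the S100 genes at both ends, Sprr1a and Crct1 are the genes above 10 FPKM.

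Binding partners were expressed to different extents. Of 31 genes of partners, receptors and targets 20 reached 10 FPKM and 8 were below 1 FPKM, against 27.1% and 51.2% of all symbols. The lists were chosen with earlier results known, so nothing is read from this contrast. These numbers of genes depend on the authors' lengths. With GENCODE lengths Sugt1 (9.66 FPKM) and Myh10 (8.79 FPKM) were below 10 FPKM. Plg (0.845 FPKM) was then below 1 FPKM and Tlr4 (1.29 FPKM) above it. All 8 genes of annexins and the annexin A2 and S100A10 scaffold Ahnak reached 10 FPKM, and their median was 233 FPKM. Anxa2, the partner of S100a10, was the highest at 1250 ± 4.84 FPKM, followed by Anxa4 (458 ± 6.29 FPKM), Anxa5 (289 ± 10.7 FPKM) and Anxa1 (249.8 ± 14.1 FPKM). With GENCODE lengths Anxa2 stayed highest at 601 FPKM, followed by Ahnak (286 FPKM), Anxa5 (281 FPKM), Anxa4 (266 FPKM) and Anxa1 (119.7 FPKM). S100a10 was at 0.549 and 0.552 times Anxa2 per length in replicates 1 and 2 (0.661 times with GENCODE lengths). S100a11 was 5.67 ± 0.233 times Anxa1 (11.7 times with GENCODE lengths).

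Of the further partners of S100a6, Cacybp, the calcyclin-binding protein, was at 30.2 and 36.4 FPKM and Sugt1, which binds S100A6 too, at 36.8 and 40.4 FPKM. S100a6 was 113 ± 16.4 times Cacybp per length, or 67.3 times with GENCODE lengths. Of the S100a4 and cytoskeleton list, the non-muscle myosin gene Myh9, the target of S100a4, was at 209 ± 5.37 FPKM, Tpm1 at 71.2 ± 3.29 FPKM, Myh10 at 11.7 ± 1.14 FPKM and Myl9 at 3.18 ± 1.71 FPKM.

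Receptors through which released S100 proteins act were partly expressed. Bsg (basigin), a receptor for S100A9, was at 613 ± 42.2 FPKM, Nptn (neuroplastin), a receptor for S100A8, at 71.5 ± 1.11 FPKM and the scavenger receptor Cd36 at 63.3 ± 2.89 FPKM. Ly96, the co-receptor of TLR4, was at 7.48 ± 0.0512 FPKM. Below 1 FPKM with the authors' lengths were Tlr4 (131 and 129 counts), Mcam (49 and 35 counts) and Ager (29 and 28 counts). Ager is the receptor for advanced glycation end products.

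The S100a13 release complex, the plasminogen system and the targets of S100a1 held 1 of 3, 2 of 4 and 1 of 3 genes at 10 FPKM or more, against 27.1% of all symbols. In the S100a13 release complex Fgf1 was at 12.8 ± 0.295 FPKM, Syt1 at 0.283 ± 0.0731 FPKM, and Il1a, another cargo, had 2 and 0 counts. S100a13 was 2.34 ± 0.150 times Fgf1 per length. Of the plasminogen system that S100A10 with annexin A2 assembles at the cell surface, the urokinase receptor Plaur was at 288 ± 12.6 FPKM, tissue plasminogen activator Plat at 51.5 and 48.7 FPKM, plasminogen itself (Plg) at 1.14 ± 0.0250 FPKM and urokinase (Plau) at 0.779 ± 0.284 FPKM. Of the targets of S100a1, the calcium pump Atp2a2 was at 149 ± 1.31 FPKM and the ryanodine receptors Ryr1 and Ryr2 were at 0.0636 ± 0.0365 and 0.0163 ± 0.00961 FPKM.

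**Figure D3:**
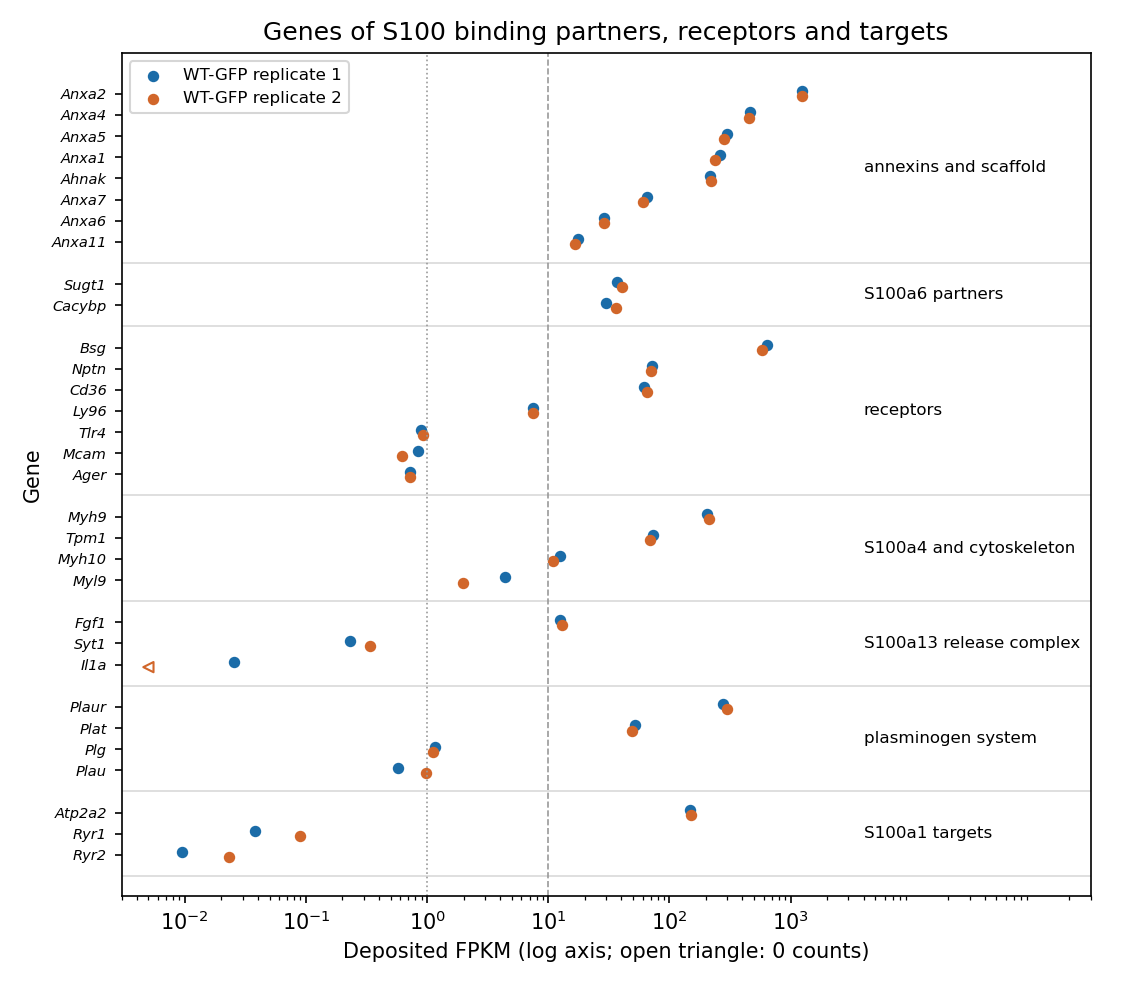
Deposited FPKM (log axis) of 31 genes of S100 partners, receptors and targets in WT-GFP replicates 1 and 2, one point per library, grouped by role, with lines at 1 and 10 FPKM and an open triangle for 0 counts. All 8 genes of the annexin group lie above 10 FPKM, whereas the receptor genes run from Bsg at 613 FPKM to Ager at 0.726 FPKM.

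Other EF-hand genes were set beside the family. Their median was 63.9 FPKM, and 15 of 16 reached 10 FPKM, against 27.1% of all symbols. Among the highest were the calmodulin gene Calm2 (413 ± 8.78 FPKM), Chp1 (189 ± 9.45 FPKM) and Calu, calumenin of the secretory pathway (150.3 ± 0.485 FPKM). The levels of S100a6, S100a11 and S100a10 were above that of Calm2 in both libraries, and their means were also with GENCODE lengths (397 FPKM for S100a10, 342 FPKM for Calm2).

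The 2 libraries were compared gene by gene with a two-sided exact binomial test of the counts given the library totals, adjusted by Benjamini-Hochberg over all 12302 genes whose mean count was 10 or higher. It compares libraries of 1 group and not conditions. No label says whether the samples came from separate mice or cultures, so the p-values speak only to the spread of this pair of libraries, and that spread may be technical. Of the 10 members 7 passed the filter on counts, and S100a8, S100a9 and S100a14 did not. Of the 7, 2 were lower in replicate 2, 0 were higher and 5 were not called. Over all genes tested 14.8% were called, 8.38% higher and 6.38% lower in replicate 2, and 2 calls in so few members are not read as particular to the family.

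S100a16 was lower in replicate 2, with 50.8 and 43.7 CPM and a log2 ratio of -0.22 (95% exact interval -0.36 to -0.08, adjusted p = 0.0179, exact binomial test). S100a6 had 2707 and 2659 CPM and a log2 ratio of -0.03 (-0.04 to -0.01, adjusted p = 0.0389, exact binomial test). The ratio of S100a6 was smaller than the SD of 0.11 over the 4409 genes with 1000 counts or more. That of S100a16 was a little larger in size than the SD of 0.18 over the 5795 genes with 100 to 1000 counts. With 941 and 778 counts S100a16 lies near the upper end of that range, next to the range with an SD of 0.11. S100a1 was at 47.0 and 41.4 CPM, a log2 ratio of -0.18 (-0.33 to -0.04, adjusted p = 0.0703, exact binomial test), and was called with another scaling of the libraries (adjusted p = 0.0464, with TMM factors, and 0.0645 to 0.0866 with other filters).

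The summed level of the hepatocyte markers was 2623 FPKM in replicate 1 and 2448 FPKM in replicate 2, with 5 of 8 called lower (6.38% of all genes tested), and its part in these ratios was not tested. The markers were not matched to all genes for counts, so nothing is read from the contrast with all genes.

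For the other members no difference was detected at this depth. The intervals of the log2 ratio were -0.05 to 0.04 for S100a10, -0.07 to 0.00 for S100a11, -0.26 to 0.09 for S100a13 and -0.14 to 0.82 for S100a4. The intervals are narrow for the abundant members and wide for S100a4. They cover counting error only, so they do not bound the spread between libraries. None of the 7 members differed by a log2 ratio of 0.5 or more, a size that with the test 1.53% of all genes reached. Among the other S100 genes S100a7a was higher in replicate 2, with 76 and 113 counts and a log2 ratio of 0.63 (0.20 to 1.07, adjusted p = 0.0292, exact binomial test). S100g had a log2 ratio of 0.56 (0.09 to 1.03) and was not called (adjusted p = 0.0817, exact binomial test).

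**Figure D4:**
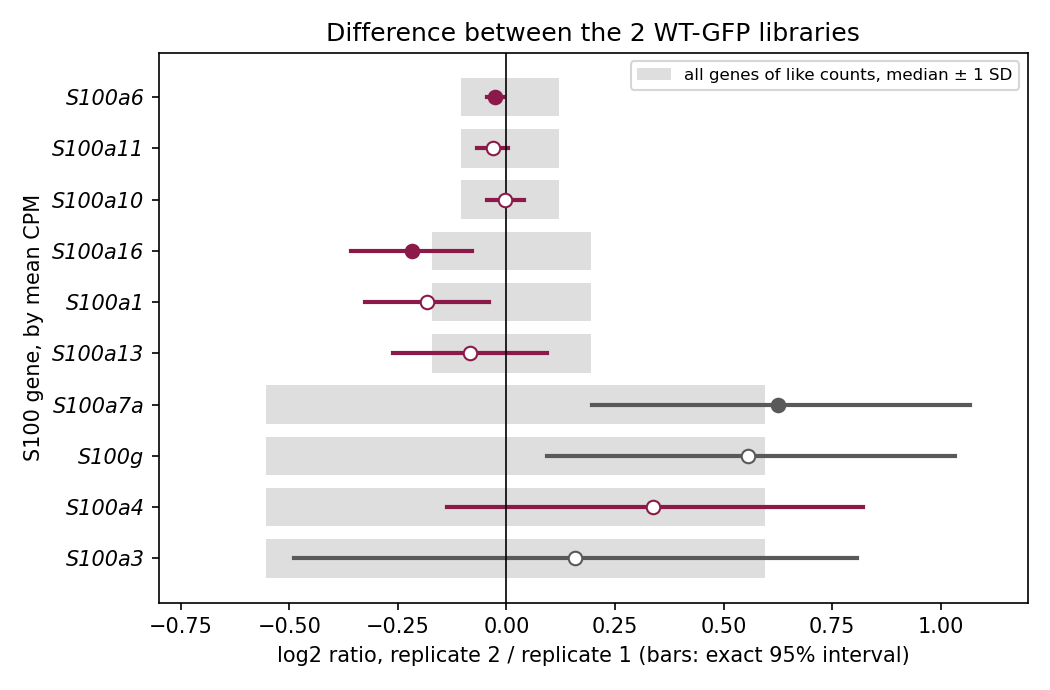
Log2 ratio of replicate 2 to replicate 1 (x axis) of the 10 S100 genes whose mean count was 10 or higher, with exact 95% intervals as bars, members in dark red, other S100 genes in grey, filled points where the adjusted p was under 0.05, and shaded bands for the median ± 1 SD of all genes of like counts. S100a16, S100a6 and S100a7a are the filled points, at -0.22, -0.03 and 0.63.

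Partner genes differed between the libraries in both directions. Of 29 partner genes that passed the filter 5 were higher and 7 lower in replicate 2, where 8.38% of all genes tested were higher and 6.38% lower. With many counts the test can call small ratios. Ahnak (104343 and 102690 counts) was called at a log2 ratio of 0.03 and Myh9 (28264 and 28186 counts) at 0.05. The partners were not matched to all genes for counts, so nothing is read from this contrast. Cacybp was higher (log2 ratio 0.27, adjusted p = 6.88e-05, exact binomial test) while its partner S100a6 was slightly lower. Anxa1 was lower (log2 ratio -0.12, adjusted p = 0.000182, exact binomial test), and Anxa2 was not called (-0.01, adjusted p = 0.693, exact binomial test). Myl9, with 95 and 41 counts, had the widest ratio of the called partners (-1.15, adjusted p = 0.000247, exact binomial test).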

How the data were processed

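The libraries are of poly(A) RNA and strand-specific, per the labels' protocols. HISAT2 (2.2.1.0) is listed in the submitters' processing notes, beside mm10 and hg38 without saying which was used for what. How reads were assigned to genes, with which annotation and strand setting, is not given in the sources used. The authors deposited raw counts per gene symbol in 9 numbered columns and FPKM for the samples numbered 7 and 8, which are WT-GFP replicates 1 and 2. The other 7 columns carry no sample name and were not used. The deposited FPKM equal the counts divided by the library total and a whole-number gene length (within 0.01 bases for 100% of the 15545 genes with a count), so they are not a second measurement, and they depend on the authors' gene lengths.

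Members and gene lists were chosen with earlier results of these data known. Named genes are the 10 members, other S100 genes at a mean of 1 FPKM or more, and the 4 highest of each list, of which 1 gene is not reported here. The marker lists depart from this rule and are given mainly as counts and sums. Further genes of the lists and of the chromosome 3 block were named after their values were seen. Libraries were compared with exact binomial tests (SciPy 1.17.1), with 0.5 added to counts in log2 ratios and a threshold of 0.05 on the adjusted p. A check on simulated counts came first. Those counts held counting error only, as the test assumes, so the check could not show how the test behaves with further spread between libraries. Alternatives were TMM factors (edgeR 4.0.16), GENCODE exon lengths, other thresholds and filters, and single libraries. Intervals and the limit of 3 counts cover counting error only, since the labels name no molecular identifiers to tell PCR copies apart.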

Additional observations from a re-analysis of the deposited data

How the results depend on the processing

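No paired analysis was possible because both libraries tied to a sample belong to 1 group. The median of the members moved from 29.5 to 34.7 FPKM with GENCODE exon lengths, and 6 of the 10 single levels moved by more than the SD of the libraries, those of S100a6, S100a10, S100a8 and S100a14 by over 1.5 times (S100a8 from 0.490 to 0.277 FPKM, S100a14 from 0.201 to 0.127 FPKM). By the construction of an SD over 2 libraries, leaving out either one cannot count as a move. Without one or the other library the median ranged from 28.0 to 31.0 FPKM, the joint share from 0.396 to 0.404%, and 6 members reached 10 FPKM each time. With a threshold of 5 FPKM it was 7 members. With a minimum log2 ratio of 0.5 the number of members differing between the libraries fell from 2 to 0, and with TMM factors it was 3, against 1794 of 12302 genes. S100a8, S100a9 and S100a14 had at most 4 counts in a library, which limits any statement on them to the bounds given.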

Other observations

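Beside S100a7a, genes of the epidermal differentiation complex between S100a9 and S100a11 differed between the 2 WT-GFP libraries, which was seen after their values. Of the 9 that passed the filter on counts 3 were higher in replicate 2 and 0 lower, where 8.38% of all genes tested were higher. Crct1 had 190 and 394 counts (log2 ratio 1.11, adjusted p = 5.26e-17), Sprr1a 1731 and 2445 counts (0.55, adjusted p = 2.59e-32) and Lor (loricrin) 20 and 57 counts (1.54, adjusted p = 0.000256), all by the exact binomial test. The log2 ratios of S100a6 (-0.03, called lower) and S100a11 (-0.03, not called), on either side of these genes, are given above. The cause was not tested.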
